A study of Mus musculus with 5 samples.

Results

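Mammary glands that differed in Brca1 dose were compared after the same exposure to 4NQO (4-nitroquinoline 1-oxide, a quinoline that forms bulky DNA adducts). The comparison used every barcode with at least 300 genes and at most 20% mitochondrially encoded counts in 3 droplet single-cell RNA libraries, which gave 21873 of the 33551 barcodes kept over the 5 libraries of the series. The PK library (Brca1 wt/wt; Trp53 flox/flox; Krt14cre) held 7438 kept barcodes. The BPK libraries (Brca1 wt/flox; Trp53 flox/flox; Krt14cre) held 7475 in replicate 1 and 6960 in replicate 2. All 3 glands had received 12 intraductal injections of 4NQO. A BPK library after 12 injections of vehicle (PBS/PEG), with 9388 kept barcodes, is given beside them as the level without 4NQO. It is a group of its own in the tests and no test compares it with the others. The floxed Trp53 alleles and Krt14cre are thus common to every group, and the recombinase is driven by the keratin 14 promoter, which is active in basal cells. Lymph nodes had been taken out of the glands before digestion. No source used here gives ages or says whether the BPK replicates came from separate animals, so that their spread may be technical.

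The mammary epithelium has an outer basal layer of contractile myoepithelial cells and an inner luminal layer. Luminal cells are either alveolar, which make milk proteins, or hormone-sensing, which carry the estrogen, progesterone and prolactin receptors. Interferon gamma, released by T cells and NK cells, switches on GTPases of the GBP and IRG families, the ubiquitin-like protein FAT10 (gene Ubd), the chemokines CXCL9 and CXCL10 that attract T cells, and MHC class II, which epithelial cells otherwise make little of. Type I interferon acts on an overlapping set of antiviral genes. BRCA1 acts in repair of broken DNA by homologous recombination.

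Total UMI counts (UMIs are the tags that count single RNA molecules) were 35281954 in PK, 46938491 in BPK replicate 1 and 27383717 in BPK replicate 2, and median UMIs per kept barcode were 3270, 4295 and 2591. BPK replicate 2 stood apart from the other libraries. It shared at most 2 cell barcodes with any of them, where the other pairs shared 26 to 107. No barcode of it began with AAACCT, with which 5 to 26 barcodes of each other library began, and 5 began with AAACCC, which none of the others had. Lars2, a mitochondrial leucyl-tRNA synthetase, read 1132 CPM (counts per 1000000 UMIs of the class in a library) in its basal cells, against 6.73 in PK and 7.30 in BPK replicate 1. The file headers name Cell Ranger 3.0.2 for PK and 5.0.1 for both BPK libraries, so that software version and genotype cannot be told apart. Heat shock genes summed to 22718 CPM in its luminal alveolar cells, against 12030 in PK and 10985 in BPK replicate 1, and mitochondrially encoded and nuclear-retained RNAs to 79548 against 48286 and 52075. In plain CPM the median gene of BPK replicate 2 lay 0.12 to 0.38 above PK on the log2 scale over all barcodes and in the epithelial, fibroblast and endothelial classes, and 0.60 above it in macrophages. For these reasons each value is given for both BPK libraries, and a rule that needs both of them on the same side of PK is given beside each test.

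Cells were assigned to classes by marker genes. Summed over the class's own markers, luminal alveolar cells held 18527 to 19622 CPM in the 3 compared libraries, luminal hormone-sensing cells 11141 to 13003 and basal cells 14224 to 20978. Barcodes with markers of more than 1 lineage made up 21% of PK, 19.7% of BPK replicate 1 and 16.9% of BPK replicate 2 and were left out of the classes. Barcodes without enough markers made up 2.69%, 2.43% and 10.3%.

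Immune cells took a larger share of both BPK libraries than of the PK library, and luminal alveolar cells a smaller one. Immune classes together were 2.11% of kept barcodes in PK, 5.18% in BPK replicate 1 and 20.1% in BPK replicate 2, with 2.72% in the vehicle gland. Both BPK values lay above PK, but they were 12.6 ± 10.6% (SD, n = 2) on average, so their own spread was nearly as large as their mean. T cells were 0.605% of PK (45 cells, exact 95% binomial interval 0.442 to 0.809%), 1.5% of BPK replicate 1 (112 cells, 1.24 to 1.80%) and 5.69% of BPK replicate 2 (396 cells, 5.16 to 6.26%), and 0.192% of the vehicle gland. The intervals do not overlap, though they cover counting error only. NK and innate lymphoid cells were 0.134%, 0.682% and 0.776% in the same order, or 0.729 ± 0.0662% (SD, n = 2) in BPK. In contrast to T cells, these shares were close to each other in the BPK replicates. Plasma cells numbered 3, 19 and 20, or 0.0403%, 0.254% and 0.287%. Macrophages were 1.01%, 1.94% and 9.01%, so most of the macrophages compared came from BPK replicate 2.

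Luminal alveolar cells were 21.3% of PK, 13.9% and 7.31% of the BPK libraries and 17.9% of the vehicle gland. Among epithelial cells only, they were 36.8% in PK and 26.1% and 23.1% in BPK, again lower in both. Luminal hormone-sensing cells did not keep to one side of PK (18.3%, against 22.8% and 10.9%), nor did endothelial cells (10.1%, against 12.9% and 5.83%). Basal cells were 18.3%, 16.8% and 13.5%, and fibroblasts 4.88%, 5.47% and 15.1%. With 2 libraries against 1, an exact permutation test cannot pass a threshold of 0.05, so no p-value is given for shares.

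**Figure D1:**
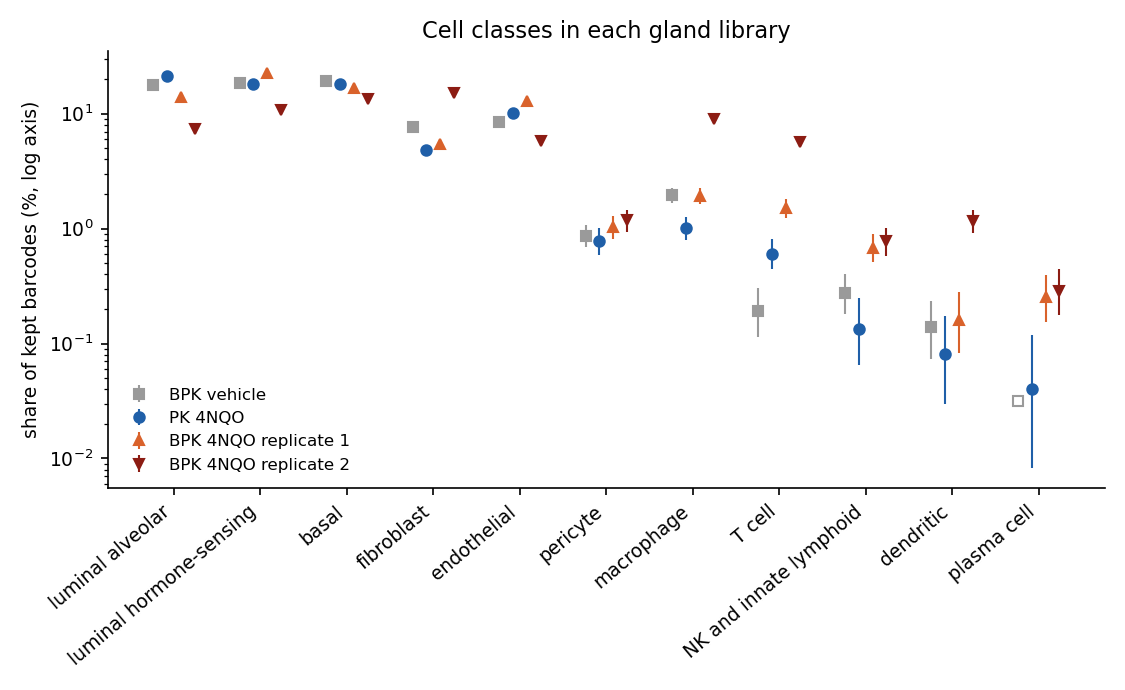
Share of kept barcodes in each marker-defined class (y axis, %, log scale) in the 4 gland libraries; bars are exact 95% binomial intervals and an open symbol marks the limit that a count of 0 allows. The T cell, NK, plasma cell and macrophage points of both BPK 4NQO libraries lie above PK 4NQO, and their luminal alveolar points lie below it.

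To compare expression, UMI counts were summed per library and class and tested with edgeR's quasi-likelihood test with Benjamini-Hochberg adjustment. The model has only 1 residual degree of freedom among the compared libraries (the BPK pair). A call did not need the BPK pair to lie close together. Retnla in hormone-sensing cells was called with log2(CPM + 1) differences from PK of 1.18 in replicate 1 and 5.68 in replicate 2. Over all barcodes 53 of 16354 genes rose (0.324%) and 6 fell (0.0367%). Of 12855 genes tested in the luminal alveolar class, 29 rose (0.226%) and 5 fell (0.0389%). In luminal hormone-sensing cells 33 of 12694 rose (0.26%) and 4 fell (0.0315%), and in basal cells 35 of 11941 rose (0.293%) and 1 fell (0.00837%). Many of these calls rest on BPK replicate 2. Of the genes that rose, many were at least 2-fold above PK in that library and not in the other. These numbered 34 over all barcodes, 22 in luminal alveolar, 18 in hormone-sensing and 16 in basal cells. At least 2-fold higher in both BPK libraries, on a log2(CPM + 1) scale among genes with at least 10 CPM in a compared library, were 54 of 8300 genes in luminal alveolar cells (0.651%), 64 of 8198 in hormone-sensing cells (0.781%) and 148 of 8818 in basal cells (1.68%). At least 2-fold lower in both were 8 (0.0964%), 11 (0.134%) and 16 (0.181%). DESeq2 called 26 genes over all barcodes, and 5, 3 and 8 in luminal alveolar, hormone-sensing and basal cells, and with relative log expression factors in place of TMM no gene was called over all barcodes by edgeR. With a stricter marker gate 2 genes were called higher in luminal alveolar cells, and with classes taken from clusters 2 in hormone-sensing cells. The 2-fold rule carries no test, and the single PK library enters both differences.

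Most interferon gamma response genes were higher in both BPK libraries than in PK in luminal alveolar and basal cells, and fewer were so in luminal hormone-sensing cells. Of 24 listed genes, 13 reached 10 CPM in luminal alveolar cells, and 10 of these were at least 2-fold higher in both BPK libraries, with 1 called by the test (Ubd). The corresponding counts were 2 of 10 with 1 called (Ubd) in hormone-sensing cells and 7 of 15 with 1 called (Ubd) in basal cells. By direction alone, 12 of 13, 6 of 10 and 13 of 15 were higher in both BPK libraries, and none was 2-fold lower in both. The share of all genes higher in both was not counted. In plain CPM the median gene lay 0.07, 0.02 and 0.02 above PK in replicate 1, on the log2 scale. In replicate 2 it lay 0.26, 0.38 and 0.33 above PK, so direction alone leans upward. The median log2 fold change over the members tested was 1.63, 1.04 and 1.49 in the 3 classes, beside medians over all genes tested of 0.01, 0.03 and 0.02. In hormone-sensing cells the replicates differed: on the log2(CPM + 1) scale the members' median difference from PK was 0.16 in replicate 1 and 1.48 in replicate 2, beside 0.02 and 0.38 over all genes.

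The starts of several members carry the interferon-stimulated response element, a site bound by factors of the IRF family. It was searched on both strands as GAAA, any 2 bases and GAAA again (TTTC, any 2 bases and TTTC on the other strand), together with the gamma-activated site TTCNNNGAA, in the 250 bases before each RefSeq start (GRCm38.p6). The GAAA pair occurred before 3.46% of 27025 genes, before 11 of the 16 interferon gamma members found in the table and before 9 of the 19 type I members found. TTCNNNGAA occurred before 8.13% of genes and before 9 and 3 of those members. Shown are 5 genes whose levels are followed through the classes below, each in the direction of transcription with motif matches in capitals.
Gbp2, chr3:142620413-142620662, plus strand: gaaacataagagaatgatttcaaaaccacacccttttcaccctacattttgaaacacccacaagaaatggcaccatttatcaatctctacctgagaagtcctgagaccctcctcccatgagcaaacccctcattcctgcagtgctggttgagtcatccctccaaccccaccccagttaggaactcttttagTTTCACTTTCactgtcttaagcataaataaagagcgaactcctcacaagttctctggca
Igtp, chr11:58199306-58199555, plus strand: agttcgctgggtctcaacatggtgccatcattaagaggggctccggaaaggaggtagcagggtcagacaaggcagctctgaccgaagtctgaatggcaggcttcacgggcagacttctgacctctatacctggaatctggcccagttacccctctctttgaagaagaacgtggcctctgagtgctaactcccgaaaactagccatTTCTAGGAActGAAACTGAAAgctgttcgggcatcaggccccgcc
Irgm1, chr11:48871421-48871670, minus strand: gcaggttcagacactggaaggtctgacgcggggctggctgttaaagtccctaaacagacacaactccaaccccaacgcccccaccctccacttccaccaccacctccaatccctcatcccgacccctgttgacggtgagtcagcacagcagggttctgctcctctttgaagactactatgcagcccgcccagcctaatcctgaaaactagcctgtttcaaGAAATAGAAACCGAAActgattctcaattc
Cxcl10, chr5:92348890-92349139, minus strand: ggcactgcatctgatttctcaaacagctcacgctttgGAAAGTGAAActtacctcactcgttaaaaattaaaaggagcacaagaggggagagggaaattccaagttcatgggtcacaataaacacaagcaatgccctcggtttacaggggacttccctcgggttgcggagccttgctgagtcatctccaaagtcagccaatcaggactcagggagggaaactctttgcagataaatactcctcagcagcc
Rsad2, chr12:26456453-26456702, minus strand: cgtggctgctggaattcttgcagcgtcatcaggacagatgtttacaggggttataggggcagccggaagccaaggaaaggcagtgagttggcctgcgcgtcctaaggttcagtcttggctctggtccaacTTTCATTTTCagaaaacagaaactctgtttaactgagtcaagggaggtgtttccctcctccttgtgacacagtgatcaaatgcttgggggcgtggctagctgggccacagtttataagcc
In Igtp the capitals hold TTCNNNGAA followed by the GAAA pair, and in Irgm1 overlapping matches of the GAAA pair that share the middle GAAA. The match in Cxcl10 begins 213 bases before the start, that in Rsad2 120 and that in Gbp2 59. The same windows of Ubd, Cxcl9, H2-Aa and Ctsr hold neither motif in these letters. A match is a description of the letters and was not tested as a site.

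Ubd (chromosome 17, 37193892 to 37196095, plus strand) encodes FAT10, which tags proteins for the proteasome. In luminal alveolar cells it read 7.26 CPM in PK, 133 in BPK replicate 1 and 38.2 in BPK replicate 2, with 0.821 in the vehicle gland. Both BPK libraries were above PK, which itself was above vehicle. Its log2 fold change was 3.44 ± 0.81 (SE; edgeR adjusted p = 0.0126). That call was not made by DESeq2 (adjusted p = 0.0679) or with a stricter marker gate (edgeR adjusted p = 0.312). In hormone-sensing cells Ubd read 0.464 CPM in PK, from 3 counts, and 17.9 and 32.3 in BPK. The mean CPM of the BPK libraries was 54.2 times that of PK (95% counting interval 18.5 to 263, for the PK count alone). The log2 fold change was 5.48 ± 1.04 (SE; edgeR adjusted p = 0.00039). In basal cells PK again had 3 counts of Ubd (0.962 CPM), against 31.0 and 33.0 CPM in BPK. The BPK replicates were close there, and the log2 fold change was 4.83 ± 0.98 (SE; edgeR adjusted p = 0.00075).

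The immunity-related and guanylate-binding GTPases, which attack the vacuoles of intracellular parasites, were higher by less than Ubd and did not pass the test gene by gene. In luminal alveolar cells Igtp read 7.26 CPM in PK and 34.2 and 22.6 in BPK, Irgm1 6.80 against 20.1 and 17.5, and Iigp1 22.5 against 68.2 and 97.0. Gbp2 read 19.7 against 69.7 and 67.0, and Gbp3 7.82 against 25.7 and 27.7. For each of these 5 genes the BPK values lay above both PK and vehicle, and the vehicle values were 2.58, 3.64, 6.33, 22.9 and 2.76 CPM. In basal cells Igtp read 6.09 CPM in PK and 38.3 and 30.3 in BPK, and Gbp2 17.3 against 64.0 and 77.3. Irgm1 in basal cells read 18.0 against 46.8 and 38.7, and Iigp1 37.5 against 194 and 241. Hormone-sensing cells differed here: Igtp read 6.18 CPM in PK and 6.51 and 10.8 in BPK, and Gbp2 15.8 against 21.3 and 52.8, with no 2-fold difference in replicate 1. The difference between classes was not tested. Ly6a, which encodes the surface protein Sca-1, read 71.7 CPM in PK alveolar cells and 229 and 175 in BPK. In hormone-sensing cells, where its level was high in every library, it read 550 CPM in PK and 797 and 408 in BPK. Ido1, which breaks down tryptophan, was the other member of this list past 2-fold in hormone-sensing cells, at 48.1 CPM in PK, 256 and 219 in BPK and 42.8 in vehicle. It was not called.

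**Figure D2:**
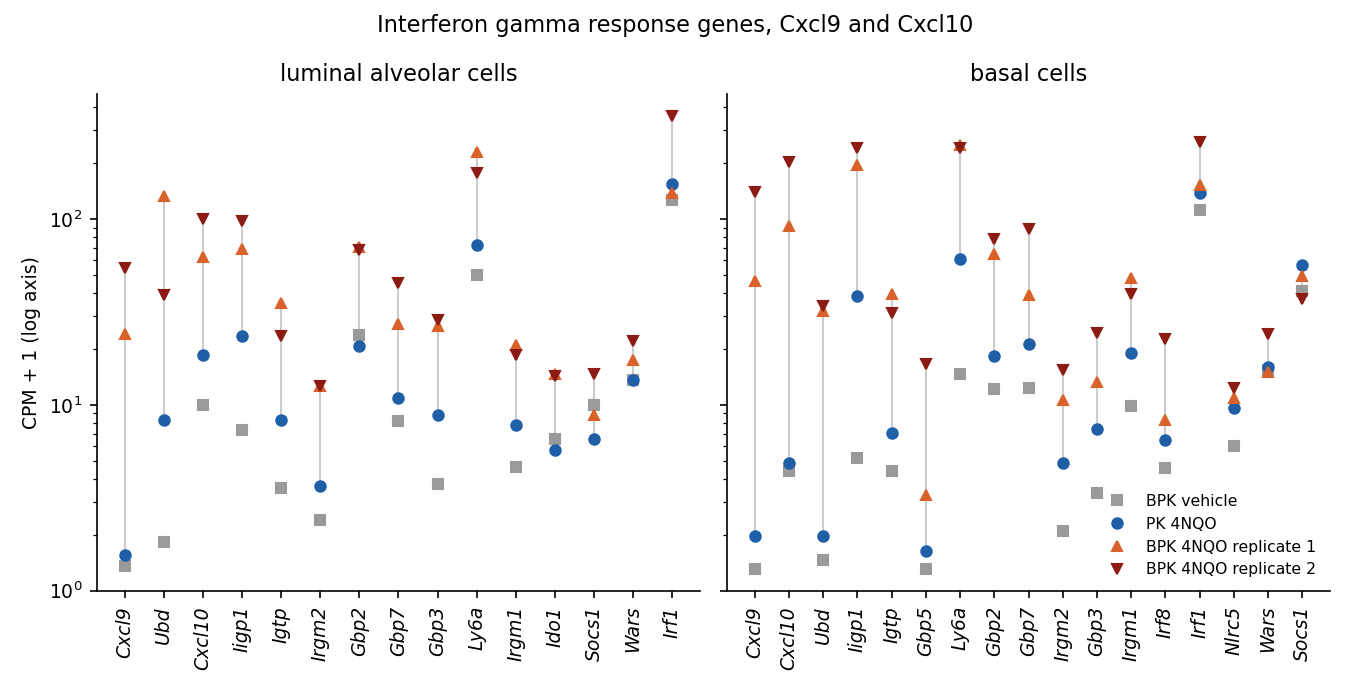
Level of each interferon gamma response gene with at least 10 CPM, and of Cxcl9 and Cxcl10, in luminal alveolar and basal cells (y axis, CPM + 1, log scale); each symbol is 1 library and the grey line spans the 3 compared libraries. In alveolar cells Ubd stands at 7.26 CPM in PK and at 38.2 and 133 in BPK, and the vehicle library is at or below PK for most genes.

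Chemokines that attract T cells through CXCR3 were higher in BPK epithelium. Cxcl9 in luminal alveolar cells read 0.552 CPM in PK, 22.9 and 53.7 in BPK and 0.352 in vehicle (log2 fold change 5.86 ± 0.89, SE; edgeR adjusted p = 1.46e-07). In basal cells Cxcl9 had 3 counts in PK (0.962 CPM) against 45.6 and 139 CPM in BPK (edgeR adjusted p = 6.4e-05). The ratio of the mean BPK CPM to the PK CPM was 95.8 (95% counting interval 32.8 to 464, for the PK count alone). Cxcl10 in basal cells read 3.85 CPM in PK, 90.7 and 201 in BPK and 3.42 in vehicle (log2 fold change 4.99 ± 1.01, SE; edgeR adjusted p = 0.00075). Cxcl9 and Cxcl10 thus rose in basal cells, where the BPK libraries were both above PK and vehicle, though with classes taken from clusters Cxcl10 was not called (edgeR adjusted p = 0.104). In luminal alveolar cells Cxcl10 read 17.7 CPM in PK and 61.5 and 98.9 in BPK and was not called. In hormone-sensing cells Cxcl9 read 0.773, 6.11 and 11 CPM and Cxcl10 3.71, 14.4 and 41.1, also not called. Of the 11 listed chemokines and receptors, 3 of 5 with at least 10 CPM were 2-fold higher in both BPK libraries in luminal alveolar cells, 3 of 5 in hormone-sensing cells and 2 of 5 in basal cells. The other 3 in basal cells were lower in both by less than 2-fold: Cx3cl1 read 56.4 CPM in PK and 41.6 and 50.8 in BPK, Cxcl16 91.1 against 90.9 and 88.3, and Ccl5 22.8 against 19.4 and 14.8. Ccl8, a monocyte-attracting chemokine outside that list and chosen after its values were seen, rose in both luminal classes. It read 0.276 CPM in PK and 9.36 and 20.6 in BPK in alveolar cells, and 0.155 against 11.3 and 26.5 in hormone-sensing cells (edgeR adjusted p = 3.19e-05 and 0.000166). These PK levels rest on very few counts, as 1 UMI of PK was worth 0.0920 CPM in alveolar and 0.155 CPM in hormone-sensing cells.

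Most type I interferon genes with at least 10 CPM were past 2-fold in both BPK libraries in basal cells, and few were in the luminal classes. Of 28 listed genes, 19 reached 10 CPM in basal cells, and all 19 of these were higher in both BPK libraries, 13 of them at least 2-fold. In luminal alveolar cells 16 of 20 were higher in both and 2 past 2-fold, and in hormone-sensing cells 14 of 18 and 1, with 1 called (Oasl1). Of all genes, 1.68% were past 2-fold higher in both in basal, 0.651% in alveolar and 0.781% in hormone-sensing cells. No such share was counted for direction alone, and the median gene of replicate 2 lay above PK in each class. The difference between classes was not tested. Rsad2, which encodes the antiviral enzyme viperin, was the only member called in basal cells. It had 2 counts in PK (0.641 CPM) against 13.6 and 80.3 CPM in BPK, with a log2 fold change of 5.82 ± 1.06 (SE; edgeR adjusted p = 8.42e-05). The ratio of the mean BPK CPM to the PK CPM was 73.2 (95% counting interval 20.3 to 605, for the PK count alone). Ifit1, a binder of foreign RNA, read 6.41 CPM in PK basal cells and 49.9 and 39.0 in BPK. Isg15, a ubiquitin-like modifier, read 47.8 against 154 and 121, and Irf7, a factor that amplifies the response, 10.3 against 41.5 and 45.1. None of these 3 was called, but in each the BPK pair lay close together and above PK, and the vehicle gland (0.778, 15.9 and 9.18 CPM) lay below PK. Irf7 in luminal alveolar cells read 72.7 CPM in PK and 208 and 117 in BPK, with 14.8 in vehicle. The level in PK was thus already above vehicle there, which shares the heterozygous genotype of BPK and not the 4NQO exposure.

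**Figure D3:**
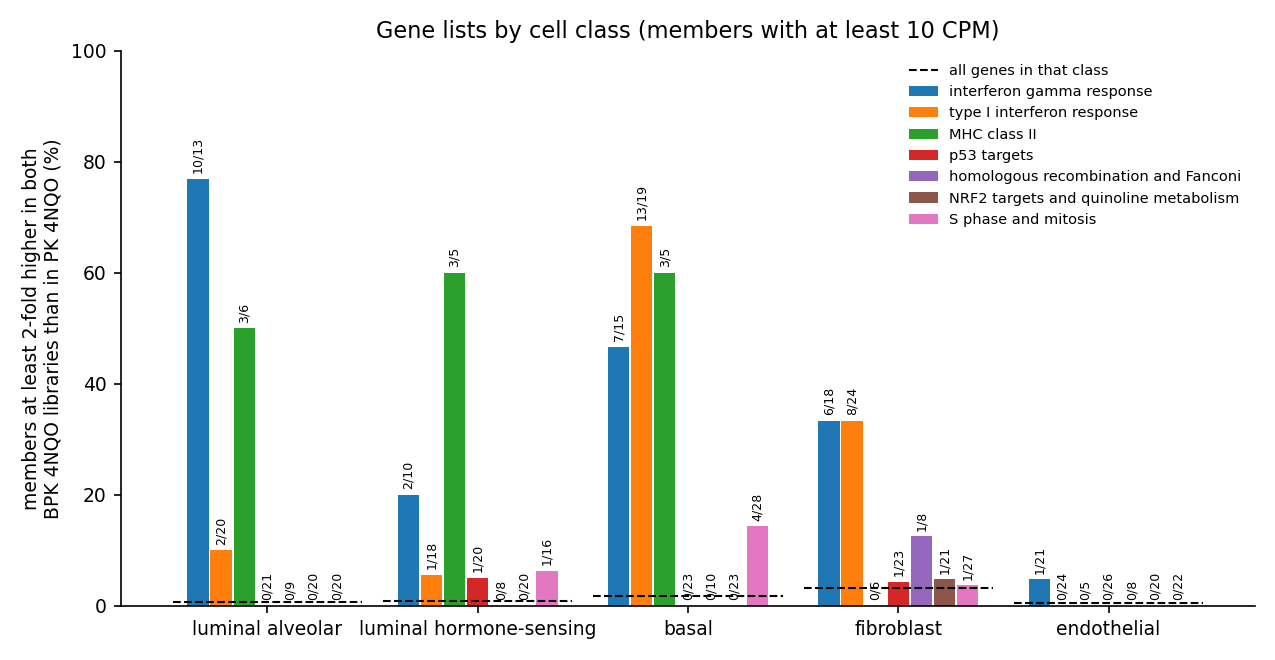
Share of the members of 7 gene lists that were at least 2-fold higher in both BPK 4NQO libraries than in PK 4NQO (y axis, % of members with at least 10 CPM), by cell class; fractions above the bars give the counts and dashed lines the same share over all genes of the class. The interferon gamma bar in luminal alveolar cells stands at 10 of 13 and the type I interferon bar in basal cells at 13 of 19, while p53 bars are at or near 0.

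H2-Aa, H2-Ab1 and Cd74, main genes of MHC class II, which presents peptides to CD4 T cells, were higher in both BPK libraries in epithelial cells and lower in both in macrophages. Of the 10 listed class II genes, those at least 2-fold higher in both were 3 of 6 with at least 10 CPM in luminal alveolar cells, 3 of 5 in hormone-sensing cells and 3 of 5 in basal cells, the same 3 in each class. Of the rest, 1 was higher in both in basal cells and 1 lower in both in hormone-sensing cells. H2-Aa (chromosome 17, 34282744 to 34287823, minus strand) encodes the alpha chain of I-A. In basal cells it read 9.94 CPM in PK, 131 and 99.7 in BPK and 9.49 in vehicle (log2 fold change 3.38 ± 0.89, SE; edgeR adjusted p = 0.0478, a call lost in 6 alternative settings, with adjusted p between 0.0518 and 0.0833). In hormone-sensing cells H2-Aa read 2.63 CPM in PK and 14.4 and 68.1 in BPK (log2 fold change 3.65 ± 0.94, SE; edgeR adjusted p = 0.0385). In luminal alveolar cells it read 11.3 against 82.9 and 47.5 and was not called. Its partner H2-Ab1 and the invariant chain Cd74 did not pass the edgeR test in any of the 3 classes, while DESeq2 called Cd74 in alveolar cells (adjusted p = 0.0153). H2-Ab1 read 36.9 CPM in PK basal cells and 322 and 170 in BPK, and 16.8 against 108 and 65.0 in alveolar cells. Cd74 read 64.1 CPM in PK basal cells and 607 and 362 in BPK, and 30.4 against 302 and 213 in alveolar cells. In each of these cases both BPK libraries were at least 2-fold above PK.

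In macrophages, whose antigen presentation rests on the same genes, all 9 listed members with at least 10 CPM were lower in both BPK libraries than in PK, and none was called. Cd74 read 34419 CPM in PK macrophages, 16125 and 11962 in BPK and 18651 in vehicle. H2-Aa read 10496 in PK, 5807 and 3828 in BPK and 5453 in vehicle. The PK library, with 75 macrophages, was thus the high one, and BPK and vehicle lay on the same side of it.

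**Figure D4:**
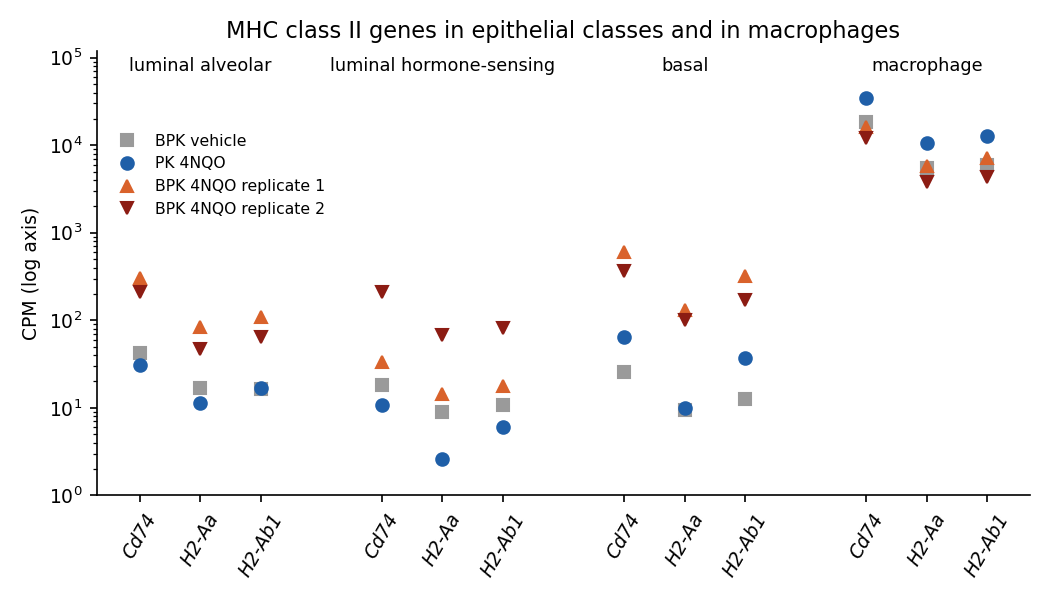
Level of Cd74, H2-Aa and H2-Ab1 (y axis, CPM, log scale) in 3 epithelial classes and in macrophages, 1 symbol per library. In the epithelial classes both BPK 4NQO symbols lie above PK 4NQO, and in macrophages they lie below it.

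Macrophages and T cells carry interferon and MHC class II genes themselves, so their markers were summed in each epithelial class. The 9 macrophage markers summed to 11.7 CPM in luminal alveolar cells of PK, 13.1 in BPK replicate 1 and 74.4 in BPK replicate 2, with 17.0 in vehicle. In basal cells they summed to 8.66, 14.1 and 118, and in hormone-sensing cells to 5.72, 11.7 and 77.6. Of the 9 markers, 3 were at 0 in PK and 1 in BPK replicate 1 in alveolar cells, and 0 in BPK replicate 2. The 10 T cell markers summed to 1.47, 4.00 and 7.40 CPM in alveolar cells, to 2.32, 6.43 and 18.3 in hormone-sensing cells and to 9.30, 12.1 and 14.4 in basal cells. Both marker sums were thus higher in BPK than in PK in all 3 classes and highest in BPK replicate 2, and their part in the results was not tested.

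PK and BPK replicate 1 shared clusters of epithelial cells, and BPK replicate 2 lay mostly in clusters of its own. Cells of a cluster could therefore be compared only between PK and BPK replicate 1, 1 against 1 and with no test. Of BPK replicate 2, 76.8% of luminal alveolar and 83.7% of hormone-sensing cells lay in the same cluster 7, so clustering did not separate its luminal classes. Luminal alveolar cells fell mainly into cluster 3, rich in Ltf (lactoferrin; 1736 CPM in PK and 1603 in BPK replicate 1), and cluster 4 with less of it (255 and 236 CPM). Cluster 3 held 25.8% of the alveolar cells of PK, 48.8% of those of BPK replicate 1 and 17.2% of those of vehicle, and cluster 4 held 54.6%, 32.7% and 51.5%. In cluster 3, 11 of 13 interferon gamma members were at least 2-fold higher in BPK replicate 1, against 1.39% of all genes. Ubd read 13 CPM in PK and 267 in BPK replicate 1, Cd74 29.5 and 551, and H2-Aa 7.29 and 155. In cluster 4 the count was 1 of 9, against 0.496% of all genes, and Ubd read 4.19 CPM in PK and 4.05 in BPK replicate 1. Cd74 there read 16.4 and 30.9. Ubd was thus higher in BPK replicate 1 in cluster 3 and not in cluster 4, and Cd74 was higher in both clusters, by more in cluster 3. C1qa, a macrophage marker, read 1.53 CPM in PK and 1.14 in BPK replicate 1 in that cluster.

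Basal cells lay mostly in cluster 1 (83.8% in PK and 84.4% in BPK replicate 1), where 7 of 13 interferon gamma and 8 of 14 type I members were at least 2-fold higher in BPK replicate 1, against 1.04% of all genes. Cxcl10 read 4.23 CPM in PK and 75.8 in BPK replicate 1 in that cluster, and Cd74 70.8 and 677. Hormone-sensing cells lay in cluster 9 (72.4% in PK, 46.8% in BPK replicate 1) and cluster 20 (10.6% and 35.1%). Of the interferon gamma members, 0 of 7 were past 2-fold in cluster 9 (median difference -0.20; 0.588% of all genes) and 3 of 8 in cluster 20 (2.79% of all genes), and in the smaller cluster 6 1 of 7 (1.63% of all genes). In cluster 20 Ubd read 0 CPM in PK and 21.8 in BPK replicate 1, and in cluster 9 it read 0.25 and 3.76.

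**Figure D5:**
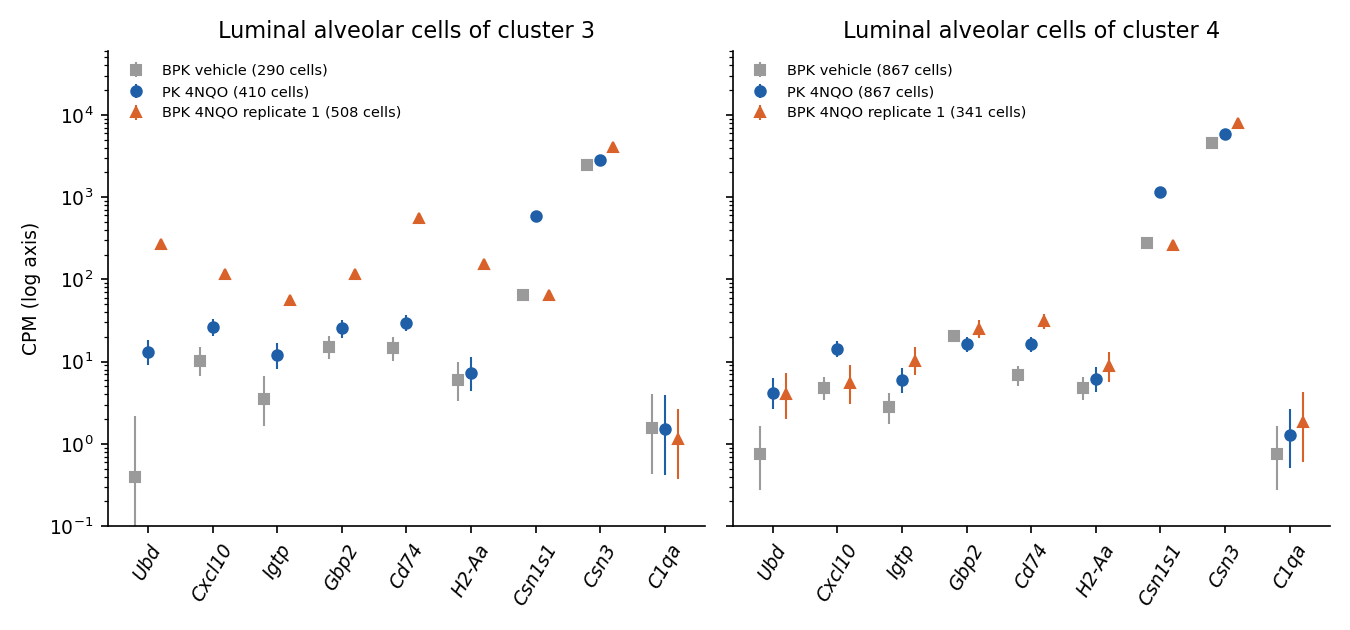
Levels of 9 genes (y axis, CPM, log scale) in luminal alveolar cells of clusters 3 and 4 in the BPK vehicle, PK 4NQO and BPK 4NQO replicate 1 libraries; bars are exact 95% Poisson intervals, which cover counting error only. In cluster 3 Ubd, Cd74 and H2-Aa of BPK replicate 1 lie above PK, in cluster 4 Ubd of PK and BPK replicate 1 overlap in their intervals while Cd74 is lowest in vehicle and highest in BPK replicate 1, and Csn1s1 is highest in PK in both clusters.

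Csn1s1 and some other milk genes were lower in both BPK libraries over all barcodes, and fewer were past 2-fold within luminal alveolar cells. Csn1s1, which encodes alpha-S1 casein (chromosome 5, 87666208 to 87682578, plus strand), read 381 CPM over all barcodes in PK, 38.2 and 29.6 in BPK and 92.6 in vehicle (log2 fold change -3.71 ± 0.97, SE; edgeR adjusted p = 0.0390). This call was lost with another scaling of the libraries (relative log expression factors, adjusted p = 0.869) and with no filter on low counts (adjusted p = 0.0519). Csn1s1 was high in the PK library, with vehicle between PK and BPK. Within luminal alveolar cells it read 893 CPM in PK, 149 and 201 in BPK and 221 in vehicle, and was not called there. It fell in hormone-sensing cells, from 23.5 CPM in PK to 5.79 and 2.25 (edgeR adjusted p = 0.036). Of the 18 listed milk genes, 4 of the 11 with at least 10 CPM over all barcodes were at least 2-fold lower in both BPK libraries (0.2% of all genes), and 1 of 12 within luminal alveolar cells. Csn2, beta casein, read 138 CPM over all barcodes in PK and 53 and 38.3 in BPK, and 344 against 218 and 219 within alveolar cells. The CPM of the 8 tested classes was also averaged with the same cell shares in each library, which leaves out all other barcodes. The mean log2 difference was then -2.35 for Csn1s1, from -3.46 over all barcodes, and -0.46 for Csn2, from -1.59. PK itself read 182 CPM for Csn1s1 in this average, so it differs from the all-barcode sum in more than class shares. In basal cells Csn2 rose instead, from 2.24 CPM to 32.2 and 26.1 (edgeR adjusted p = 0.0267). Csn3, kappa casein, read 4490 CPM in PK alveolar cells and 5243 and 3781 in BPK, on both sides of PK. In cluster 3 Csn1s1 read 590 CPM in PK and 63.7 in BPK replicate 1, and in cluster 4 it read 1145 and 263. The vehicle values in these clusters were 64.4 and 276 CPM. Csn1s1 was thus lower in BPK replicate 1 in both clusters, unlike Ubd.

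Hormone-sensing cells of BPK held more Ctsr, a cathepsin of the family expressed in placenta (chromosome 13, 61159204 to 61164256, minus strand). It read 2.01 CPM in PK, 93.0 and 357 in BPK and 4.97 in vehicle (log2 fold change 6.50 ± 1.37, SE; edgeR adjusted p = 0.00176), and was the gene of this class with the largest change by the naming rule. In cluster 20 Ctsr read 3.91 CPM in PK, from 3 counts, and 223 in BPK replicate 1, and in cluster 9 it read 1.51 and 14.6. Over all barcodes it read 0.937, 32.9 and 80.5 CPM (log2 fold change 5.57 ± 1.10, SE; edgeR adjusted p = 0.000625; 0.24 with the other scaling). Ctsj, a neighbour in the same family chosen after its values were seen, also rose in hormone-sensing cells, with 0 CPM in PK and 3.81 and 8.77 in BPK (edgeR adjusted p = 0.0202). Retnla, a secreted resistin-like protein of macrophages and epithelia, read 1.08 CPM in PK and 3.73 and 105 in BPK (log2 fold change 5.26 ± 1.10, SE; edgeR adjusted p = 0.00139), most of it in replicate 2, and 11 in vehicle, and DESeq2 did not call it. Bdnf, a neurotrophin, read 80.9 CPM in PK and 30.5 and 20.3 in BPK and was not called, and its vehicle level was 67.3. The hormone receptors were not called: Esr1 read 81.8 CPM in PK and 65.6 and 78.6 in BPK, and Pgr 156 against 182 and 469.

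Several keratin, cornified envelope and inflammatory genes rose in basal cells of BPK, while the main keratins of the same list did not. Krt6a, a keratin of wounded epithelium (chromosome 15, 101689910 to 101694307, minus strand), read 10.9 CPM in PK, 90.9 and 189 in BPK and 1.87 in vehicle (log2 fold change 3.44 ± 0.90, SE; edgeR adjusted p = 0.0452, a call lost in 4 alternative settings, with adjusted p between 0.0513 and 0.321). Sprr1a, a cornified envelope protein, read 3.53 CPM in PK and 18.1 and 64.8 in BPK (edgeR adjusted p = 0.0401), and Krt79 had 2 counts in PK (0.641 CPM) against 14.9 and 16.3 CPM (edgeR adjusted p = 0.0321). These 3 were the members called of the keratin and cornified envelope list, of which 5 of 14 with at least 10 CPM were 2-fold higher in both. Another 3 were lower in both (Krt15, Krt17 and Lgals7), and the list summed to 6079 CPM in PK and 5335 and 3357 in BPK. Basal cells with 2 or more keratinocyte markers numbered 11 in PK, 31 in BPK replicate 1 and 28 in BPK replicate 2, and their part in these values was not tested. Ptgs2, cyclooxygenase 2, read 6.41 CPM in PK, 40.0 and 144 in BPK and 14.0 in vehicle (log2 fold change 3.56 ± 0.88, SE; edgeR adjusted p = 0.0306; 0.207 with classes taken from clusters). Serpinb2, an inhibitor of plasminogen activators, had 2 counts in PK (0.641 CPM) against 14.4 and 54.9 CPM in BPK (edgeR adjusted p = 0.000266). In all 5 genes BPK replicate 2 was the higher of the pair and both replicates were above PK. Pcp4, a calmodulin-binding peptide chosen after its values were seen, was the only gene that fell, from 26.0 CPM to 3.02 and 6.82 (edgeR adjusted p = 0.0378). Acta2 and Krt14, which mark contractile basal cells, read 7278 and 3910 CPM in PK, 5601 and 3854 in BPK replicate 1 and 5123 and 2552 in replicate 2, with neither called. Of the S phase and mitosis list, 4 of 28 were 2-fold higher in both (Mcm2, Mcm5, Mcm6 and Mcm7, of the replicative helicase) and none was called.

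No source used here says which exons are floxed, and the reads count 3' ends, so Brca1 and Trp53 counts do not check the genotypes. Brca1 (chromosome 11, 101488764 to 101551955, minus strand) had 37 counts over all barcodes in PK, 49 in BPK replicate 1 and 140 in BPK replicate 2, or 1.05, 1.05 and 5.14 CPM, with 1.77 in vehicle. No difference between PK and BPK replicate 1 was detectable at this depth. Trp53 (chromosome 11, 69580359 to 69591873, plus strand) read 44.4 CPM in PK and 45.1 and 27.3 in BPK, and in basal cells 39.8, 48.1 and 22.4. Few genes that answer DNA damage were past 2-fold between the genotypes in these classes. Of the p53 target list, 0 of 21, 1 of 20 and 0 of 23 members with at least 10 CPM were 2-fold higher in both BPK libraries in luminal alveolar, hormone-sensing and basal cells. Cdkn1a, the p53-induced inhibitor of the cell cycle, read 152 CPM in PK alveolar cells and 154 and 165 in BPK, and Mdm2 29.2 against 30.3 and 39.7. The member past 2-fold in hormone-sensing cells was Trp53inp1, at 85.2 CPM in PK and 178 and 339 in BPK, not called. Of the homologous recombination and Fanconi list, 0 of 9, 0 of 8 and 0 of 10 were past 2-fold. No member of either list, nor of the nucleotide excision repair and NRF2 lists, was called higher in these classes. With 1 residual degree of freedom these counts do not show that levels were equal.

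In fibroblasts some interferon genes were past 2-fold and none passed the test. No gene of 10417 was called, with 260 at an unadjusted p under 0.05 by edgeR and 0 called by DESeq2. At least 2-fold higher in both BPK libraries were 292 of 9015 genes (3.24%), and 173 were lower (1.92%). Past 2-fold higher were 6 of 18 interferon gamma members (3 with each library centred on its median gene) and 8 of 24 type I members. Most fibroblasts of BPK replicate 2 (81.4%) lay in cluster 16, which held 8.82% of those of PK and 19.6% of those of BPK replicate 1. Cxcl9 read 40.7 CPM in PK fibroblasts, 403 and 315 in BPK and 2.22 in vehicle, Serpinb2 28.1 against 263 and 231, and Gbp2 70.2 against 173 and 156. In cluster 15, which all libraries shared, Cxcl9 read 39.2 CPM in PK, 345 in BPK replicate 1 and 47.7 in BPK replicate 2, so its level in replicate 2 was near PK there. Sostdc1, an inhibitor of BMP and Wnt signals, read 121 CPM in PK and 20.6 and 11.9 in BPK. Over the whole class, MHC class II genes did not follow the interferon genes: 0 of 6 were past 2-fold higher in both BPK libraries. Cd74 read 243 CPM in PK and 290 and 120 in BPK. In cluster 15, by contrast, 6 of 6 class II members were at least 2-fold higher in BPK replicate 1 than in PK (7.53% of all genes).

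In endothelial cells few interferon genes were past 2-fold. By share they were fewer than in basal cells in both lists, and than in alveolar cells in the interferon gamma list. Hormone-sensing cells, and alveolar cells for type I, also had few. The differences between classes were not tested. Of 10198 genes, 3 rose (0.0294%), and 44 of 8754 were at least 2-fold higher in both (0.503%). Of the interferon gamma list 1 of 21 members was past 2-fold and of the type I list 0 of 24. Ccl21a, a chemokine of lymphatic and high endothelium with near-identical gene copies, had 6 counts in PK (3.90 CPM) against 36.9 and 294 CPM in BPK and 151 in vehicle (log2 fold change 5.28 ± 1.21, SE; edgeR adjusted p = 0.0478). That call was not made by DESeq2 or in 4 other settings. Lymphatic endothelial markers in this class summed to 101 CPM in PK, 110 and 640 in BPK and 215 in vehicle, and their part in the Ccl21a values was not tested. Ccl5 read 94.9 CPM in PK and 20.9 and 41.7 in BPK and was not called. In pericytes 4 of 2758 genes rose (0.145%), of which Lars2 had 1 count in BPK replicate 1 and 342 in replicate 2. In macrophages 1 of 6543 genes fell (0.0153%): Lepr, the leptin receptor, had 24 counts in PK (157 CPM), 2 in BPK replicate 1 and 1 in replicate 2, and DESeq2 did not call it (adjusted p = 0.165).

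T cell genes over all barcodes were higher in both BPK libraries, as the T cell shares were. In such sums fewer cells of a type and less RNA per cell cannot be told apart. Ifng, the gene for interferon gamma, had 49 counts in PK (1.39 CPM), 100 in BPK replicate 1 (2.14 CPM), 262 in replicate 2 (9.62 CPM) and 12 in vehicle (0.188 CPM). Within the T cell class it read 321 CPM in PK, 243 and 201 in BPK and 137 in vehicle, so the level per T cell UMI was not higher in BPK. The checkpoint receptor Ctla4 read 0.710, 2.76 and 26.1 CPM over all barcodes, and the costimulator Icos 1.73, 7.37 and 34.6. Within T cells these were higher in BPK too, unlike Ifng: Ctla4 read 183 CPM in PK and 322 and 651 in BPK, and Icos 458 against 774 and 812, neither called. Of the 22 genes of the T cell list, 7 of 11 with at least 10 CPM were at least 2-fold higher in both BPK libraries over all barcodes (1.16% of all genes), and none was called. Within T cells no gene of 4374 was called by edgeR or by DESeq2, with 68 and 19 at an unadjusted p under 0.05. Cd8a read 336 CPM in T cells of PK and 191 and 348 in BPK. Cd4 had 1 count in T cells of PK (15.3 CPM, counting interval 0.387 to 85.1), against 104 and 86.3 CPM in BPK. That interval overlaps those of the BPK libraries (66.8 to 155 and 64.2 to 113). Foxp3, the factor of regulatory T cells, had 29 counts in T cells of BPK replicate 2 and 0 in PK and in BPK replicate 1, where 0 counts allow up to 56.4 and 16 CPM.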

How the data were processed

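Droplet libraries were prepared with 10x 3' chemistry, per the labels. The labels name the same version for every library, although the barcode starts of BPK replicate 2 differed from those of the others. The authors deposited raw UMI counts per gene and barcode, made with Cell Ranger 3.0.2 (PK) or 5.0.1 (the others) on mm10, per the file headers and the submitters' processing notes; no source used here gives options or cell calling. Every deposited barcode held at least 500 UMIs.

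Barcodes with at least 300 genes and at most 20% mitochondrially encoded counts were kept. A barcode joined the class with the largest share of marker counts if it held at least 2 of that class's markers, a relative share of at least 0.15 and no other lineage above 1/3 of it. Doublets were not called for the main results beyond this rule. Thresholds of the gate were set after the data were seen. Members, markers and lists were chosen with earlier results of these data known. Counts were summed per library and class (30 cells or more in each compared library) and tested with edgeR 4.0.16 (quasi-likelihood, limma 3.58.1, R 4.3.3; TMM factors, low counts filtered, Benjamini-Hochberg over all genes tested, 0.05), with vehicle in the model as a group of its own except for T cells. CPM is per 1000000 UMIs of the class. SE is the absolute log2 fold change divided by the square root of the F statistic of the test. DESeq2 1.42.0, other scaling, filters, gates and clusters (scanpy 1.11.5) were alternatives. The scripts were tested on simulated data. Genes named singly are members of the lists or those called, at a mean of 32 CPM or more, with the largest smaller difference of the BPK pair, up to 10 a side over all barcodes and 6 in a class. Where fewer were called, up to 3 a side are given as values. Intervals cover counting error only. The values of 1 listed gene are not reported here. IDs were matched to GENCODE M21 (21092 of 21213 detected).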

Additional observations from a re-analysis of the deposited data

Results flagged for a closer look

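Only the MHC class II list was searched for this section. A member was taken if both BPK libraries were at least 2-fold above PK in an epithelial class and neither was above PK in macrophages. H2-Aa, H2-Ab1 and Cd74 met this in luminal alveolar, hormone-sensing and basal cells, which gives 9 cases that share genes and macrophage values. For these genes both BPK libraries were lower than PK in macrophages. The difference between class and macrophages was not tested. As a difference of mean log2 differences, it was 3.53 for H2-Aa in luminal alveolar cells, 4.32 in hormone-sensing cells and 4.55 in basal cells. For H2-Ab1 the values were 3.44, 3.67 and 3.82 in the same order, and for Cd74 they were 4.33, 4.2 and 4.16. The PK library gives the reference in both terms, from 75 macrophages.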

How the results depend on the processing

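No paired analysis was possible because the PK group has 1 library. Without 1 BPK library the model has no residual degrees of freedom, so calls have no such check. Keratinocytes, B cells, dendritic cells and NK cells held under 30 cells in a compared library or had no gate and were not tested. Depth limits pericytes, macrophages and T cells, where 1 UMI in a compared library was worth up to 11, 6.56 and 15.3 CPM. Of the 22 named calls, 15 were also made by DESeq2, 13 with relative log expression factors, 16 without a filter, 19 at 10% mitochondrial counts and 20 with the 3 compared libraries only. With classes taken from clusters 5 of 12 were kept and with the stricter gate 9 of 13, and no named call reversed. In the classes from clusters, BPK replicate 2 held only 46 luminal alveolar and 45 hormone-sensing cells. The causes of the changes below were not tested.

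Genes called higher and lower came to 23 and 3 over all barcodes with DESeq2 and to 0 and 0 with relative log expression factors. DESeq2 gave 3 and 2 in luminal alveolar, 3 and 0 in hormone-sensing and 8 and 0 in basal cells, 0 higher in endothelial cells and pericytes, and 0 lower in macrophages. The stricter gate gave 2 higher in alveolar cells, 2 lower in hormone-sensing cells, 0 higher in endothelial cells and 1 higher in T cells. Classes from clusters gave 2 and 0 in hormone-sensing cells, 0 lower in basal cells, 3 lower in fibroblasts, 10 and 1 in endothelial cells and 1 lower in T cells. In hormone-sensing cells 2 were lower with 3 libraries and 2 with doublets removed, which left 2 higher in pericytes. Without a count filter 0 were lower in basal cells and 0 higher in endothelial cells and pericytes, and at 10% mitochondrial counts 0 were higher in endothelial cells.

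Counts past 2-fold in both BPK libraries, higher and lower, were 40 and 11 over all barcodes with a pseudocount of 5, 66 and 4 in basal cells, 109 and 95 in fibroblasts and 8 and 4 in endothelial cells, with 29 higher in alveolar and 30 in hormone-sensing cells. A pseudocount of 0.5 gave 72 higher in endothelial cells. With no minimum, 30 were lower over all barcodes, and the counts were 96 and 25 in alveolar, 107 and 31 in hormone-sensing, 319 and 71 in basal cells, 769 and 788 in fibroblasts and 229 and 187 in endothelial cells. At 32 CPM or more they were 67 and 10 over all barcodes, 27 and 3 in alveolar, 32 and 4 in hormone-sensing, 68 and 5 in basal cells, 102 and 56 in fibroblasts and 12 and 3 in endothelial cells. Centring each library on its median gene, chosen after seeing the data, gave 84 and 26 over all barcodes, and 3 interferon gamma members in fibroblasts and 0 in endothelial cells. With clusters, 16 interferon gamma and 8 type I members were past 2-fold in alveolar cells and 10 interferon gamma members in fibroblasts. With doublets removed, 5 type I members were past it in fibroblasts.

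Counts past 2-fold over all genes were lower without BPK replicate 2 than without replicate 1, and in either case above the main counts. They ranged from 136 to 2434 higher and 26 to 710 lower over all barcodes, 86 to 1236 and 21 to 460 in alveolar, 79 to 1912 and 19 to 595 in hormone-sensing, 170 to 1763 and 56 to 587 in basal cells, 415 to 1988 and 501 to 1205 in fibroblasts, and 99 to 1231 and 131 to 1027 in endothelial cells. The lists ranged, for interferon gamma, from 7 to 11 in basal cells, 9 to 11 in fibroblasts and 1 to 6 in endothelial cells, and for type I interferon from 4 to 10 in alveolar cells, 11 to 13 in fibroblasts and 1 to 7 in endothelial cells. Milk genes lower over all barcodes ranged from 5 to 7, T cell genes over all barcodes from 7 to 11, and in basal cells keratins from 5 to 8, S phase genes from 7 to 10, p53 targets from 0 to 3 and homologous recombination genes from 0 to 6.

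The log2 ratio of BPK to PK shares was -2.74 for luminal alveolar, -2.14 for hormone-sensing and 1.96 for NK cells with clusters, and 1.85 for NK and 2.27 for plasma cells with the stricter gate. The cluster ratios of these luminal classes rest on 46 and 45 cells of BPK replicate 2, most of whose luminal cells lay in a cluster of mixed markers. Without BPK replicate 2 the log2 ratio turned positive in hormone-sensing cells (0.32, from -0.22) and endothelial cells (0.35, from -0.22). Leaving out either BPK library gave -0.75 to 0.32 and -0.80 to 0.35 in these classes.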

Other observations

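Saa3 and Cxcl5 rose over all barcodes in the BPK glands. Saa3, a serum amyloid A protein, read 2.16 CPM over all barcodes in PK, 113 and 31.5 in BPK and 0.391 in vehicle (log2 fold change 4.93 ± 1.09, SE; edgeR adjusted p = 0.00458), and was higher in BPK replicate 1 than in replicate 2. In the average of the tested classes at fixed cell shares, its mean log2 difference went from 4.27 to 2.77. There it was 4.86 in replicate 1 and 0.68 in replicate 2, so replicate 2 was no longer past 2-fold. With relative log expression factors no gene was called over all barcodes. Cxcl5, a ligand of CXCR2 on neutrophils, read 0.653 CPM in PK and 11.6 and 17.4 in BPK (edgeR adjusted p = 0.0473). Of the 30 genes of the NF-kB and acute-phase list, 6 of 27 with at least 10 CPM over all barcodes were at least 2-fold higher in both BPK libraries (1.16% of all genes), and 2 were called. Lcn2 and Cxcl1, of the same list, were not among them: Cxcl1 read 938 CPM in PK and 1017 and 1025 in BPK.

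Macrophage genes over all barcodes followed BPK replicate 2. Mrc1, the mannose receptor, read 0.568 CPM in PK and 3.21 and 160 in BPK, and Plek 3.49 against 8.85 and 327. In the average of the tested classes at fixed cell shares, the mean log2 difference went from 4.05 to 2.82 for Mrc1. For Plek it went from 3.66 to 1.22. By library it was 1.40 and 4.25 for Mrc1 and 0.15 and 2.28 for Plek in that average.

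Hist1h2ap, a histone gene, was low in the PK library in every epithelial class. It read 2.94 CPM in PK alveolar cells and 12.8, 86.1 and 53.1 in BPK replicate 1, BPK replicate 2 and vehicle, and 1.28 CPM in PK basal cells against 29.7, 161 and 36.7. Skeletal muscle genes were low in both BPK libraries. The 6 muscle markers summed to 143 CPM over all barcodes in PK, 5.15 and 33.3 in BPK and 388 in vehicle, and Acta1 in luminal alveolar cells read 14.6 CPM in PK, 0.316 and 0 in BPK and 12.6 in vehicle.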
